A study of Mus musculus with 9 samples.

Results

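The 6 genes described are Ms4a4c, Ms4a4b, Ms4a6b, Ms4a6c, Ms4a6d and Ms4a7, the myeloid members of the MS4A family that had a probe set carrying no other gene symbol. They were selected from a list of names, and all 6 of 6 listed genes were found, among 19752 genes measured. Where a gene has several probe sets the one with the highest mean over the arrays was to be used, but each of the 6 had a single one. This choice used the mean over all groups and not the difference between them. The list itself was drawn up with results on these arrays known, so the tests on its members describe these arrays and are not independent evidence.

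Gene expression was measured on 9 single-colour Affymetrix arrays in F4/80+ peritoneal macrophages, double sorted from the lavage fluid of C57BL/6 males aged 6 weeks. Mice were killed 2 h after a subcutaneous injection of 10000 U of recombinant interferon alpha (IFNa, n = 4) or 8000 U of recombinant interferon gamma (IFNg, n = 2), or received no treatment (n = 3). The treated samples are labelled F4/80+ ICAM2+ and the untreated ones F4/80+ only, while the series' design text gives F4/80+ ICAM+ without naming a group. No group received vehicle alone, so injection, sort label and interferon cannot be told apart in a difference from untreated. The labels do not say whether a sample is 1 mouse or a pool, so the p-values measure the spread between these samples. In sorted bulk RNA a shift in the mix of cells and a change in RNA per cell cannot be told apart.

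MS4A proteins are small membrane proteins that cross the lipid bilayer several times and have both ends in the cytoplasm. The best known are Ms4a1, which encodes the B cell antigen CD20, and Ms4a2, which encodes the beta chain of the mast cell receptor for IgE. Other members are found in monocytes, macrophages and T cells, where they associate with immune receptors and tune their signals. IFNa and IFNg act through separate receptors, and the promoters of genes that answer to them often hold short sequences called ISRE, typical of the response to IFNa, and GAS, typical of that to IFNg.

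In the RefSeq annotation of the GRCm38.p6 mouse assembly the 6 genes lie close together on chromosome 19, in the order Ms4a7, Ms4a4c, Ms4a4b, Ms4a6c, Ms4a6b and Ms4a6d. Promoter sequences were present in the RefSeq table for 5 of the 6, all except Ms4a6d, with 2 start sites for Ms4a7. Among these promoters, of 300 bases each, 2 pairs were alike. The promoters of Ms4a4c and Ms4a4b were 72.1% identical over their whole aligned length, with a longest shared run of 20 bases, and those of Ms4a6c and Ms4a6b were 51.2% identical, with a shared run of 48 bases. The 12 other pairs of promoters from different genes were 40.4% to 47.6% identical, with longest shared runs of 7 to 9 bases. Stretches of these 4 promoters are shown because the members of each pair share a part of their promoter and can be set beside their responses below.

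The first pair covers the 130 bases before the start of each gene, at chr19:11407531-11407660 for Ms4a4c and chr19:11443428-11443557 for Ms4a4b, both on the plus strand of GRCm38.p6. Over these stretches 113 of 134 aligned positions were identical (84.3%). Capitals mark the longest run that both hold without a mismatch.
Ms4a4c: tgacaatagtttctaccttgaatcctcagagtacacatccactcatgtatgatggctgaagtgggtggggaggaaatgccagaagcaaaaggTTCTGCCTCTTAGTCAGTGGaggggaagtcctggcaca
Ms4a4b: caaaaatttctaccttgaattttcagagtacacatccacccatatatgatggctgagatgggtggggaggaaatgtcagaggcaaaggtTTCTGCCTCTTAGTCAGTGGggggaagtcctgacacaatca

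The second pair covers 150 bases each, from 150 bases to 1 base before the start of Ms4a6c at chr19:11469218-11469367 and from 220 to 71 bases before the start of Ms4a6b at chr19:11518339-11518488, both on the plus strand. Here 125 of 156 aligned positions were identical (80.1%), and capitals again mark the longest shared run. The 2 stretches lie at different distances from the start and both hold that run. Their likeness therefore does not stand for the whole promoters, which were 51.2% identical.
Ms4a6c: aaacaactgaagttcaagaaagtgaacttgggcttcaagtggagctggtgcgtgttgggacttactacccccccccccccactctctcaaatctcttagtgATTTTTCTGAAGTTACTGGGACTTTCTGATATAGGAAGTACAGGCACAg
Ms4a6b: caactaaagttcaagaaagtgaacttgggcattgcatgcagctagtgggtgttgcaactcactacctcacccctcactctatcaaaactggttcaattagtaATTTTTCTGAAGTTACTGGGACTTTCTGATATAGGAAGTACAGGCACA

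Each promoter, a window from 250 bases before the start to 50 after it, was searched on both strands for 3 motifs. An ISRE was taken as GAAA followed after 2 bases by a second GAAA, a GAS as TTCNNNGAA and a PU.1 site, bound by a factor that macrophages need, as GAGGAAGT. None of the 6 promoters of the 5 genes held any of these, against 3.44%, 8.30% and 3.20% of the 32851 promoters in the table. The shorter GAAANNGAA, which every such ISRE contains and which was searched after the others had been seen, occurs in 8.56% of all promoters. It was found as GAAAGTGAA in Ms4a6c, 133 to 125 bases before the start, and in Ms4a6b, 206 to 198 bases before it. Both Ms4a7 start sites also had a match, as TTCGTTTTC on the opposite strand and as GAAAAGGAA, and Ms4a4c and Ms4a4b had none. A match describes letters, and its absence says only that they are not within this window.

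After IFNa, 5 of the 6 genes rose and Ms4a7 did not pass the test. Ms4a4c rose most, by log2 4.12 ± 0.14 (SE), or 17.3-fold, in 4 IFNa against 3 untreated arrays, followed by Ms4a6c (4.88-fold), Ms4a6b (4.00-fold), Ms4a6d (3.41-fold) and Ms4a4b (1.84-fold). A gene was called at an adjusted p under 0.05 from limma, fitted to all 9 arrays and adjusted by Benjamini-Hochberg over all genes. Of all genes 1.79% were called higher in this comparison. The median difference of the 6 was log2 1.89, against -0.02 over all genes. In 5 of the 6 every IFNa array lay above every untreated array, as it did in 3.68% of all genes.

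After IFNg none of the 6 genes passed the same test, and 1.24% of all genes were called higher. Before adjustment 3 of the 6 had a p under 0.05, as did 8.23% of all genes in either direction. Ms4a6c, Ms4a6d and Ms4a4c had the largest estimates, log2 0.87, 0.72 and 0.68, and in each of the 3 both IFNg arrays lay above all untreated arrays, as in 12.3% of all genes. The median of the 6 was 0.35, against -0.06 over all genes. In a fit with array weights, which called 31.2% of all genes, Ms4a4c (0.99, adjusted p = 5.22e-05), Ms4a6c (0.65, adjusted p = 0.00215) and Ms4a6d (0.61, adjusted p = 0.0111) passed as higher and Ms4a4b and Ms4a7 as lower (limma). Both comparisons use the same untreated arrays, so their values are given side by side and are not separate observations.

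**Figure D1:**
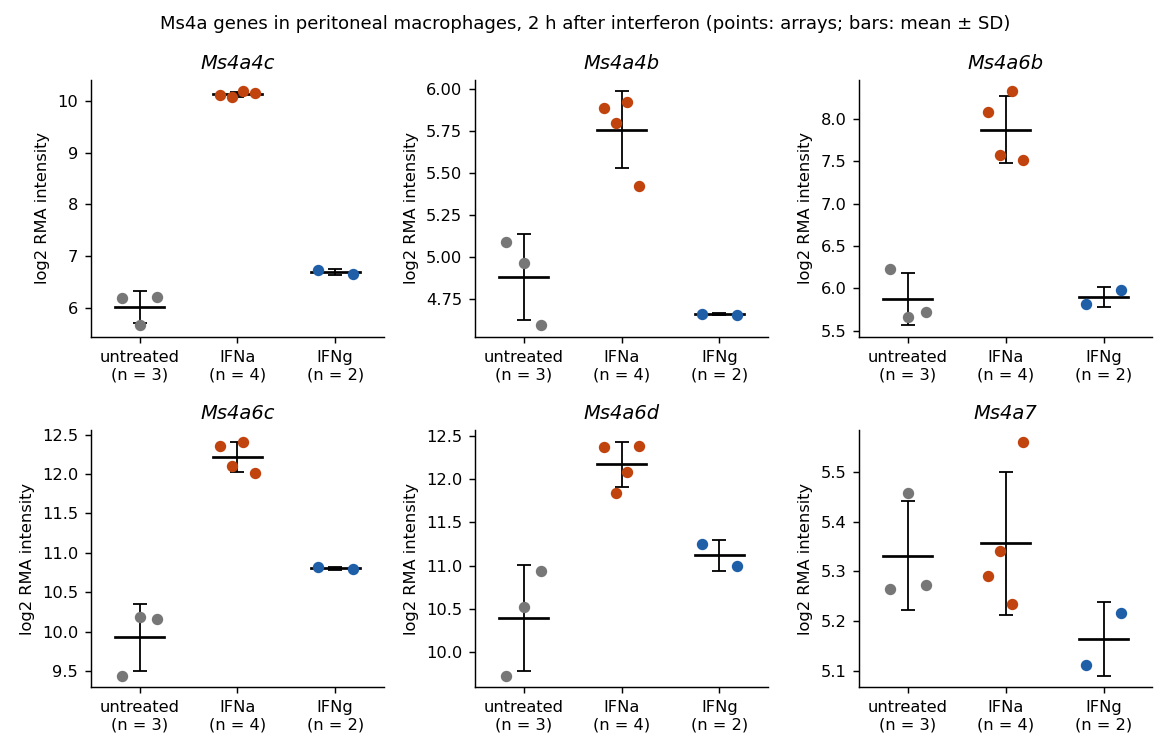
Log2 RMA intensity of the 6 Ms4a genes (vertical axis, scaled separately for each gene and not starting at 0) in untreated, IFNa and IFNg arrays; points are arrays, horizontal lines group means and error bars the SD. The IFNa points lie above all others in every panel but that of Ms4a7, where the whole range is 34.6 to 47.2 in linear intensity.

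Ms4a4c belongs to the Ms4a4 branch of the family, whose products are found on blood and immune cells. Its RMA intensity was 72.8, 50.5 and 73.8 in the untreated arrays, 1109, 1075, 1163 and 1142 after IFNa, and 106.7 and 100.4 after IFNg. The 3 groups did not overlap, and the 4 IFNa arrays lay closer together (SD 0.05 on the log2 scale) than the untreated ones (SD 0.31). Its rise after IFNa (adjusted p = 6.48e-07, limma) was the 16th largest estimate of all genes. The IFNg arrays differed from untreated by log2 0.68 ± 0.17, with an adjusted p of 0.144 and a 95% confidence interval of 0.29 to 1.06. IFNa exceeded IFNg by log2 3.44 ± 0.16, or 10.8-fold (adjusted p = 1.11e-05, limma), the 9th largest difference in that direction. IFNa was thus above both other groups, and whether IFNg passed against untreated depended on the fit.

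Ms4a4b is known from T cells, where its product modulates activation and proliferation. Its intensity was 34.0, 31.2 and 24.1 in untreated arrays, 59.3, 55.7, 60.7 and 43.0 after IFNa, and 25.3 and 25.1 after IFNg. All 4 IFNa arrays were above the rest, and the IFNg arrays fell inside the untreated range. It rose by log2 0.88 ± 0.16 after IFNa (adjusted p = 0.0188, limma) and was higher after IFNa than after IFNg by 1.10 ± 0.18 (adjusted p = 0.0209). The latter call ended under quantile normalization (0.92, adjusted p = 0.173) and without either IFNg array or IFNa replicate 1, 2 or 3 (1.05 to 1.11, adjusted p = 0.0694 to 0.294). IFNg and untreated differed by -0.22 ± 0.19 (adjusted p = 0.772, interval -0.66 to 0.21). The gene was dim: its untreated signal exceeded that of 4.76% to 6.69% of genes on the same array, which leaves the fold of this dim probe set uncertain. The rise passed neither after quantile normalization (0.82, adjusted p = 0.0646) nor in 5 of the 9 fits that left out 1 array, those without untreated replicate 2 or 3 or IFNa replicate 1, 2 or 3 (0.73 to 0.92, adjusted p = 0.0520 to 0.0734).

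The Ms4a4b and Ms4a4c promoters printed above are the most alike of the set, and the 2 genes had the smallest and the largest called rise. The difference between their responses was not tested. Paralogs of this family are alike in sequence, the probe sequences were not used here, and signal shared between probe sets of near neighbours was not tested.

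Ms4a6b, which has been studied in T cells as a partner of the receptor GITR, had an intensity of 74.99, 50.8 and 53.0 in untreated arrays, 270.5, 190.3, 321.1 and 183.5 after IFNa, and 56.5 and 63.4 after IFNg. The IFNa arrays stood apart from both other groups, and the IFNg arrays lay within the untreated range. The rise after IFNa was log2 2.00 ± 0.22 (adjusted p = 7.53e-04, limma). IFNg differed from untreated by 0.03 ± 0.26 (adjusted p = 0.977), with an interval of -0.56 to 0.62 that leaves room for changes of either sign. IFNa exceeded IFNg by 1.97 ± 0.25 (adjusted p = 0.00531, limma), the 21st largest difference in that direction. That call ended without IFNg replicate 1 (1.89, adjusted p = 0.102) or IFNg replicate 2 (2.06, adjusted p = 0.0702).

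Ms4a6c, a myeloid gene next to Ms4a4b on the chromosome, was bright before treatment. Its intensity was 694.6, 1167 and 1147 in untreated arrays, 5253, 4394, 5404 and 4132 after IFNa, and 1804 and 1773 after IFNg. The groups did not overlap, and untreated replicate 1 was the lowest array. The gene rose by log2 2.29 ± 0.19 after IFNa (adjusted p = 1.11e-04, limma), and IFNa exceeded IFNg by 1.41 ± 0.22 (adjusted p = 0.0153). The latter call ended without either IFNg array or without IFNa replicate 1 or 3 (1.35 to 1.43, adjusted p = 0.0522 to 0.218). After IFNg the difference was 0.87 ± 0.23 (adjusted p = 0.164, interval 0.36 to 1.39). Without the 2 arrays of narrow intensity range, untreated replicate 1 and IFNa replicate 4, it was 0.63 and passed (adjusted p = 0.0368).

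Ms4a6d is expressed in macrophages, where its product has been linked to the restraint of inflammatory responses. Its intensity was 850.4, 1472 and 1964 in untreated arrays, 5284, 3656, 4344 and 5356 after IFNa, and 2435 and 2041 after IFNg. The groups did not overlap, although the lower IFNg array was near the highest untreated one. The untreated spread was the widest of the 6 genes (SD 0.61 on the log2 scale). The rise after IFNa was log2 1.77 ± 0.26 (adjusted p = 0.00496, limma). The IFNg arrays differed from untreated by 0.72 ± 0.31 (adjusted p = 0.586, interval 0.02 to 1.42). Unlike the other 4 risen genes, Ms4a6d did not pass in the direct comparison, where IFNa exceeded IFNg by 1.05 ± 0.30 (adjusted p = 0.236). It passed there without untreated replicate 1 (1.05, adjusted p = 0.0445) and without both narrow arrays (0.97, adjusted p = 0.0336).

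Ms4a7, a marker of several tissue macrophage populations, stayed near the low end of the intensity scale in all groups. It read 38.4, 44.0 and 38.7 in untreated arrays, 39.1, 40.5, 37.6 and 47.2 after IFNa, and 34.6 and 37.2 after IFNg. These values exceeded those of 8.11% to 11.4% of genes on the same array. IFNa and untreated arrays overlapped and differed by log2 0.02 ± 0.12 (adjusted p = 0.981, limma), with an interval of -0.24 to 0.29, and the sign of this estimate changed under other settings. IFNg differed from untreated by -0.17 ± 0.14 (adjusted p = 0.768, interval -0.48 to 0.15). At such a dim signal a small change may not be visible.

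Set against each other, IFNa and IFNg differed in 4 of the 6 genes: Ms4a4c, Ms4a6b, Ms4a6c and Ms4a4b were all higher after IFNa, as were 0.44% of all genes. The median of the 6 was log2 1.26, against 0.03 over all genes. The doses differed (10000 U and 8000 U) and only 2 IFNg arrays were available. Leaving out 1 array moved this count of 4 to as few as 1, without IFNg replicate 1 or 2, or 2, without IFNa replicate 1 or 3, and to as many as 5.

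The rest of the family was described from a list of 18 further genes, of which 14 had a probe set of their own. After IFNa 2 of these 14 rose, as did 1.79% of all genes. They were Ms4a4a and Ms4a4d, both of the Ms4a4 branch, and none of the 14 fell. The median of the 14 was log2 0.06. After IFNg none passed, and none had an unadjusted p under 0.05 (limma), against the 8.23% of all genes given above. Between IFNa and IFNg none passed and 2 had an unadjusted p under 0.05, as did 7.07% of all genes in either direction.

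Ms4a4a, the mouse gene named like human MS4A4A, a macrophage surface protein that partners the fungal receptor Dectin-1, read 49.0, 49.7 and 52.1 in untreated arrays. It read 278.0, 87.4, 185.8 and 175.7 after IFNa and 55.2 and 48.9 after IFNg. All IFNa arrays were above the rest, with IFNa replicate 2 the lowest of them. The rise was log2 1.74 ± 0.31 (adjusted p = 0.0163, limma), but the call ended when any single untreated array, IFNa replicate 3 or both narrow arrays were left out (1.69 to 1.76, adjusted p = 0.0515 to 0.0837). The difference from IFNg was 1.69 ± 0.35 (adjusted p = 0.0705), and it passed without IFNa replicate 2 (2.01, adjusted p = 0.0041).

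Ms4a4d, another gene of that branch, read 47.9, 45.8 and 41.9 in untreated arrays, 73.7, 71.0, 103.3 and 91.4 after IFNa, and 50.7 and 43.0 after IFNg. The IFNa arrays again lay above both other groups. The rise was 0.89 ± 0.15 (adjusted p = 0.0125, limma) and its call ended without untreated replicate 2 (0.90, adjusted p = 0.0664). IFNa exceeded IFNg by 0.84 ± 0.17 (adjusted p = 0.0643).

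The 12 other family genes measured did not pass in any comparison. Ms4a8a, a gene linked to alternatively activated macrophages, was bright in every array (6521 to 7863), and its IFNa and IFNg differences were log2 0.13 ± 0.10 and 0.15 ± 0.12. The related genes Tmem176a and Tmem176b, which lie on another chromosome, differed by -0.20 ± 0.18 and -0.17 ± 0.12 after IFNa. Ms4a2 stayed between 23.3 and 36.8 in all arrays.

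Along the chromosome most of the measured genes that rose stood side by side among those measured. RefSeq lists 32 genes from Ms4a10 to Ms4a3, of which 19 were measured here. From Ms4a4a to Ms4a6d all 7 measured genes were called higher after IFNa, as were 1.79% of all genes. Their order was Ms4a4a, Ms4a4c, Ms4a4b, Ms4a6c, Ms4a6b, Ms4a4d and Ms4a6d. Genes that were not measured, such as the protein-coding Gm8369, also lie in this stretch. Of the 12 measured genes outside this stretch 1 was called higher, the long non-coding RNA gene AW112010, which lies toward the other end of the cluster and was singled out after its values were seen (log2 1.02 ± 0.17 after IFNa, adjusted p = 0.0102, and 0.74 ± 0.20 after IFNg, adjusted p = 0.187, limma). The next measured genes on either side were Ms4a7 and Ms4a2. The ends of this stretch were read from the calls, so no test was made of it, and the calls of Ms4a4a, Ms4a4b and Ms4a4d are those that ended in some fits.

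**Figure D2:**
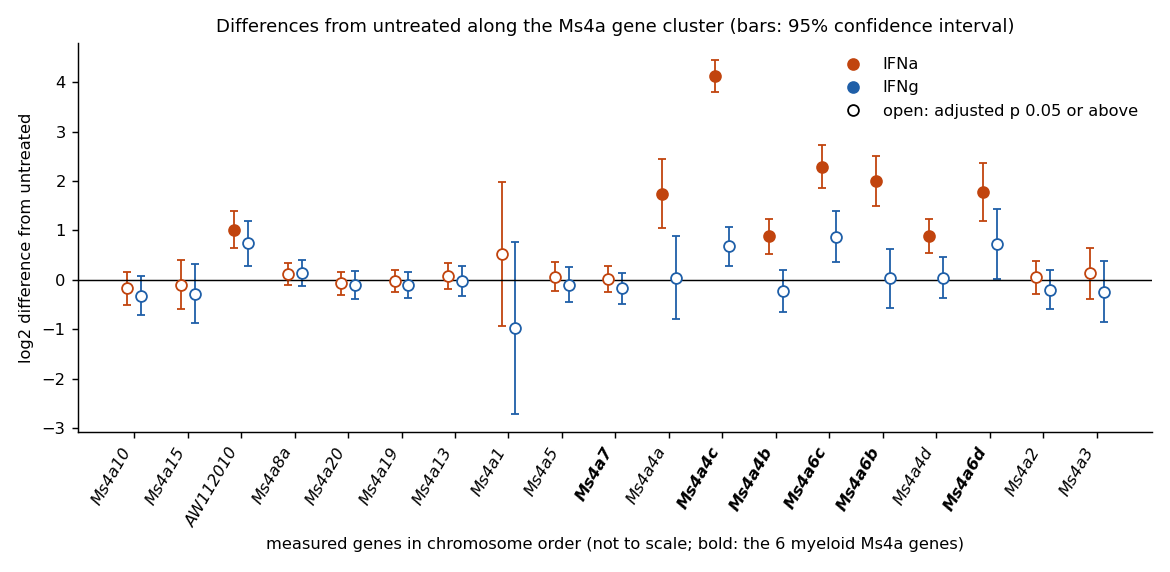
Log2 difference from untreated (vertical axis) after IFNa and IFNg for the 19 measured genes from Ms4a10 to Ms4a3 in chromosome order (horizontal axis, not to scale); bars are 95% confidence intervals and filled points have an adjusted p under 0.05. The 7 genes from Ms4a4a to Ms4a6d have filled IFNa points, Ms4a4c the highest at 4.12, and no IFNg point is filled.

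The genes whose pattern was most like that of each risen member were found as the 3 with the smallest root-mean-square (RMS) difference over the 9 arrays, each gene taken as log2 intensity less its own untreated mean. Predicted genes and chemosensory receptors were left out. Several of those nearest are textbook interferon-stimulated genes. Nearest to Ms4a4c were Ifi214, of the PYHIN family (RMS 0.44), Oasl1, an oligoadenylate synthetase-like gene (0.47), and the mitochondrial nucleotide kinase gene Cmpk2 (0.59). The IFNa and IFNg differences were log2 3.85 and 1.07 for Ifi214, 3.67 and 0.01 for Oasl1, and 4.65 and 1.38 for Cmpk2. Those of Ms4a4c were 4.12 and 0.68. Of these 3 nearest genes only Cmpk2 passed after IFNg (adjusted p = 0.0300, limma).

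Nearest to Ms4a6c were Dhx58 (RMS 0.18) and Ifih1 (0.20), which encode the cytosolic RNA sensors LGP2 and MDA5, and the poly(A) polymerase gene Tent4a (0.23). The IFNa and IFNg differences were log2 2.22 and 1.09 for Dhx58, 2.44 and 0.94 for Ifih1, and 2.23 and 0.67 for Tent4a. Those of Ms4a6c were 2.29 and 0.87. Nearest to Ms4a6d were the nuclear body gene Sp100 (0.17), the ciliary gene Tmem67 (0.18) and Pnpt1, a mitochondrial RNA-processing gene (0.19). Nearest to Ms4a6b were the cyclin gene Ccnj (0.35), Ifit1bl2 of the IFIT family (0.35) and Nfxl1 (0.36). For Ms4a4b they were Plekhh1 (0.13), Hap1 (0.16) and the semaphorin gene Sema4c (0.17), with similarly small IFNa differences of 0.76, 0.90 and 0.90.

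No other MS4A gene was among the 3 nearest to a risen member. Few family genes stood against 19752 genes, so this was likely beforehand. The ranks that follow also count predicted genes and chemosensory receptors. The nearest family gene to Ms4a6b was Ms4a4a, 7th among all genes, and to Ms4a4b it was Ms4a4d, 13th. Ms4a6c and Ms4a6d were each other's nearest family gene (RMS 0.42), 37th and 63rd among all genes, and Ms4a4c was nearest to Ms4a6c (1.26), 52nd. With 9 arrays in 3 groups, likeness mostly repeats the 2 group differences.

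**Figure D3:**
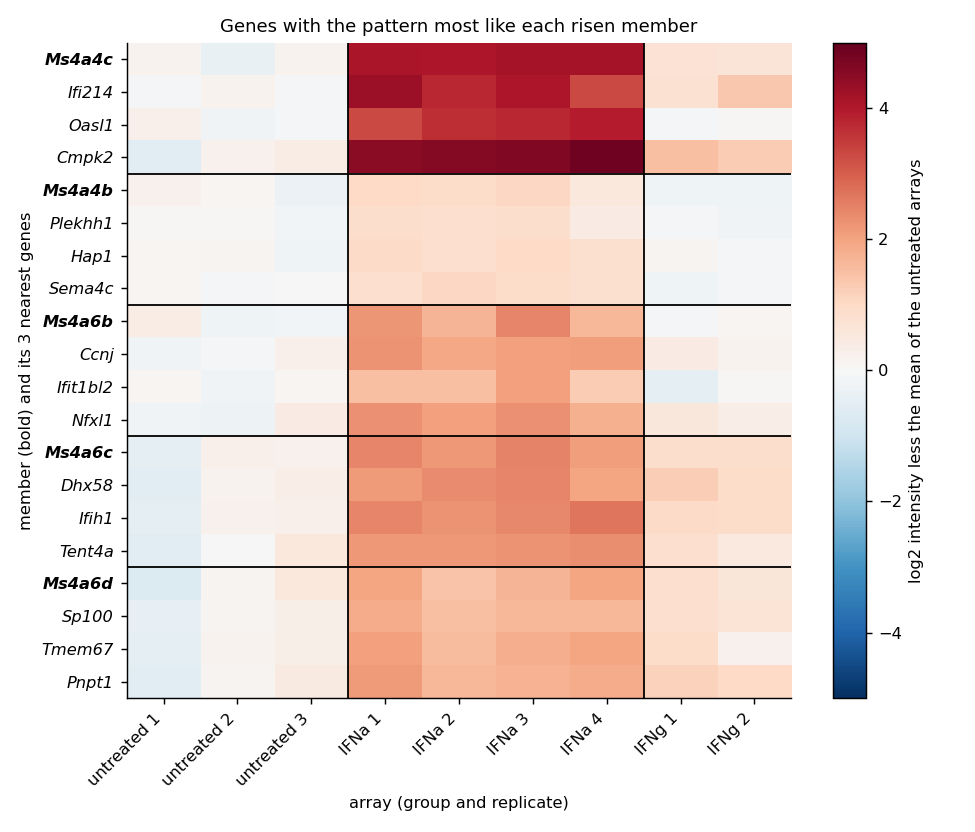
Log2 intensity less the mean of the untreated arrays (colour) in the 9 arrays (columns) for the 5 risen Ms4a genes (bold) and the 3 genes nearest to each (rows). In the rows of the 5 Ms4a genes the IFNa columns average 4.12, 0.88, 2.00, 2.29 and 1.77 (Ms4a4c, Ms4a4b, Ms4a6b, Ms4a6c, Ms4a6d), and the IFNg columns 0.68, -0.22, 0.03, 0.87 and 0.72.

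Of 8 listed partner receptors of MS4A proteins 7 were measured. They include Clec7a, which encodes Dectin-1, Trem2, a lipid-sensing receptor, and the adaptor genes Tyrobp and Fcer1g. None passed in the IFNa, IFNg or direct comparison (limma), where 2.65%, 1.35% and 0.98% of all genes did. None had an unadjusted p under 0.05 (limma), which 11.9%, 8.23% and 7.07% of all genes had. At those shares a list this short would give few such genes or none. The medians of the 7 were log2 -0.07 after IFNa and 0.00 after IFNg. The lowest estimates were those of Clec7a, -0.51 after IFNa (interval -1.10 to 0.07) and -0.36 after IFNg (interval -1.06 to 0.34).

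Ms4a genes also mark other cells, so their markers were examined beside them. The sorted cells carried the large peritoneal macrophage list at a summed intensity of 94186 to 100434 in untreated, 91677 to 99632 in IFNa and 95432 to 97887 in IFNg arrays. Of its 15 measured genes Mertk rose (log2 0.62, adjusted p = 0.0318) and Gata6 fell by 1.05 (adjusted p = 0.00997) after IFNa, and Gata6 fell by 1.16 (adjusted p = 0.0242) after IFNg (limma). Markers of monocytes, dendritic cells and small peritoneal macrophages, where Ms4a4c and Ms4a6c are also known to be expressed, summed in untreated, IFNa and IFNg arrays to 6936 to 8041, 7057 to 8768 and 7620 to 7951. Of its 10 genes 1, Plac8, rose after IFNa (1.00, adjusted p = 0.0156, limma). The Plac8 difference was similar after IFNg (1.03, adjusted p = 0.0537, limma), and -0.03 between IFNa and IFNg.

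No gene was called in the 3 comparisons for B cells (8 measured), T and NK cells (12), mast cells (8) or neutrophils and eosinophils (10). Of all genes 2.65%, 1.35% and 0.98% were called, and at those shares lists this short would give few calls or none. Before adjustment, 1 mast cell gene and 2 neutrophil and eosinophil genes had a p under 0.05 after IFNa (limma). After IFNg 2 mast cell genes did. The shares of all genes were 11.9% and 8.23%. The summed T and NK list was 788 to 1107 in untreated, 773 to 1074 in IFNa and 793 to 810.0 in IFNg arrays, and those groups overlapped. The B cell list summed to 992 to 1299, 811 to 2685 and 822 to 887, with IFNa replicate 2 the highest. Ms4a1 followed it, at 530.5 in IFNa replicate 2 against 53.7 to 179.2 in the other IFNa arrays, 67.4 to 200.4 untreated and at most 67.8 after IFNg. In that same array Ms4a4c, Ms4a4b, Ms4a6b, Ms4a6c and Ms4a6d did not have their highest IFNa value. With so few IFNa arrays, the place of this array cannot decide whether B cells had a part in the rises of these genes. Mast cell genes summed to 586 to 783, 521 to 662 and 512 to 520, and neutrophil and eosinophil genes to 1245 to 1541, 1097 to 1415 and 1081 to 1169. In both lists IFNa replicate 4, an array of narrow intensity range, was the only IFNa array within the untreated range. For the B cell, mast cell and neutrophil and eosinophil lists both IFNg arrays lay below all untreated arrays. How many of all genes lay lower in this way was not counted, only 2 IFNg arrays were available, and the sums were not tested. An array has no true 0, so these sums include the background signal of each probe set. The part that other cells play in the differences of the 6 genes was not tested.

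**Figure D4:**
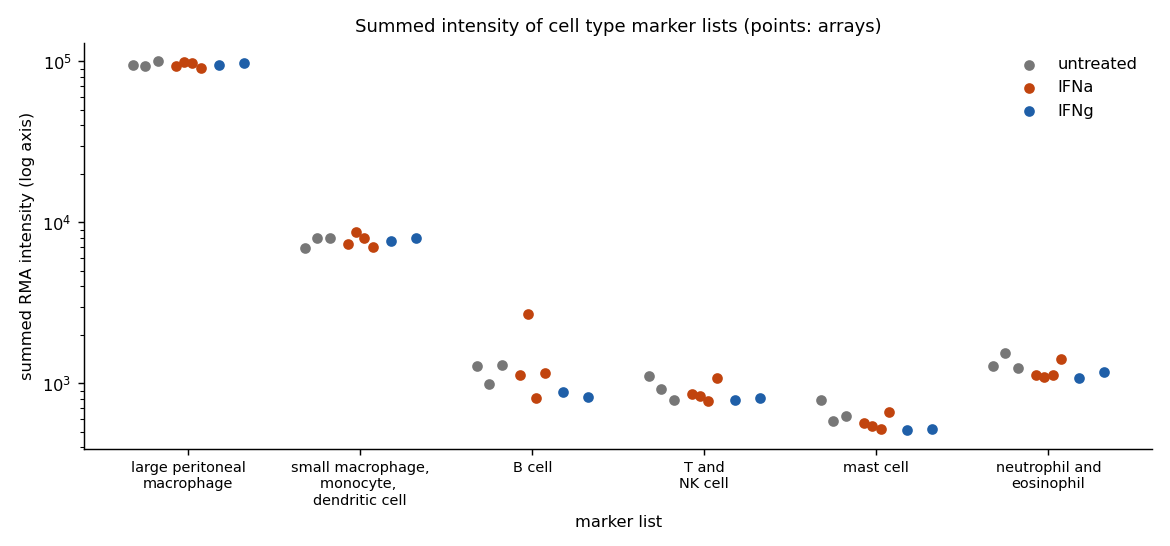
Summed RMA intensity (vertical axis, log scale) of 6 marker lists (horizontal axis) in each array, coloured by group. The lists differ in their number of genes, so only groups within a list can be compared. The groups overlap for IFNa and untreated in every list, and IFNa replicate 2 stands at 2685 in the B cell list. For mast cells and for neutrophils and eosinophils only IFNa replicate 4 (662 and 1415) reaches the untreated range.

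Across the 9 arrays median intensity ranged from 162.2 to 178.3. The upper quartile exceeded the lower by log2 2.16 in IFNa replicate 4 and 2.27 in untreated replicate 1, against 2.68 to 3.03 in the others. Without these 2 arrays 5 of the 6 genes still rose after IFNa, by 4.19 (Ms4a4c), 1.09 (Ms4a4b), 2.30 (Ms4a6b), 2.11 (Ms4a6c) and 1.36 (Ms4a6d) on the log2 scale. In untreated replicate 1 Ms4a6c and Ms4a6d had their lowest values, and in IFNa replicate 4 Ms4a4b, Ms4a6b and Ms4a6c had their lowest IFNa values.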

How the data were processed

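RNA extracted with TriZol was biotin-labelled with Affymetrix's WT kit, per the labels. Each array's deposited table gives 1 linear RMA intensity per probe set, made by the authors with Affymetrix Power Tools and RMA, per the submitters' processing notes; the version, and which arrays were normalized together, are not given in the sources used here. Arrays give no counts, and their number limits the precision.

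From these the log2 of each intensity was taken. Of 24922 probe sets 21425 carried 1 gene symbol in the platform annotation, 1399 several and 2098 none. The brightest per gene gave 19752 genes, named through Entrez identifiers, with no filter on low values. limma 3.58.1 (R 4.3.3) estimated the 3 group means from the 9 arrays together. Degrees of freedom were 6 residual and 3.62 prior, and most of them come from the untreated and IFNa arrays, so the IFNg spread rests largely on those. The code of the fit was run on simulated data with independent noise of the same spread on every array. That run does not cover arrays of unequal spread, such as these. P-values are two-sided and adjusted by Benjamini-Hochberg over all genes of each of 3 comparisons; errors after a difference are SE. Promoters came from RefSeq (GRCm38.p6) and were aligned globally with Biopython 1.88.

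The members, lists, motifs, tests, alternatives and the rule for naming genes were chosen with earlier results of these data known. The rule named the 6 members, called family and partner genes, Ms4a1 and Ms4a2, the 3 nearest genes of each called member and measured genes between members. Alternatives were quantile normalization, median centring, removal of the dimmest 30% of genes, an intensity trend, robust variances, only the groups compared, a block by replicate number, a 2-fold minimum, each array left out, both narrow arrays left out and array weights.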

Additional observations from a re-analysis of the deposited data

Results flagged for a closer look

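In the IFNa group of 4 arrays, 20 MS4A family genes were examined for an array whose gap to the others took most of the group's range (Dixon's test at the 95% level). None of the 6 myeloid genes had such an array, and 4 of the others did. Chance gives about 1 in 20 where genes vary independently. These 4 fell in pairs on the same arrays, so no excess over chance can be read from them. Ms4a2 read 36.8 and Ms4a3 read 139.2 in IFNa replicate 4, each above the other 3 arrays. Tmem176a read 1160 and Tmem176b read 4595 in IFNa replicate 1, each below the others. For Tmem176b the other 3 IFNa arrays and IFNg replicate 2 carried 1 identical value, 4905. Its gap therefore took the whole IFNa range whatever its size, and the test has no meaning there. IFNa replicate 4 is also the array of narrowest intensity range.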

How the results depend on the processing

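The rises of Ms4a4c, Ms4a6b, Ms4a6c and Ms4a6d after IFNa kept their direction and passed under all 18 alternatives run for single genes, with ranges of log2 3.94 to 4.41, 1.85 to 2.30, 2.04 to 2.42 and 1.36 to 2.04. With 1 array left out, the number of the 6 genes called ranged from 4 to 5 after IFNa, was 0 throughout after IFNg, and ranged from 1 to 5 between IFNa and IFNg; for the 14 other family genes it ranged from 0 to 2 after IFNa and from 0 to 1 between IFNa and IFNg. After IFNg 1 of the 6 passed without both narrow arrays (Ms4a6c), and 5 passed with array weights (estimated gene by gene, a method chosen after the default had not converged on these data, weights 0.12 to 5.07), of which Ms4a4c, Ms4a6c and Ms4a6d were higher and Ms4a4b and Ms4a7 lower; those weights called 31.2% of all genes in that comparison. With array weights 5, 6 and 2 of the 14 other genes passed in the 3 comparisons. Of these 14, after IFNa, 0 passed without the dimmest genes, because Ms4a4a and Ms4a4d were removed with them, as were Ms4a4b and Ms4a7; 1 passed with a 2-fold minimum and 1 without both narrow arrays. With an intensity trend 1 passed between IFNa and IFNg, Ms4a4d.

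Estimates near 0 changed sign. For Ms4a7 the IFNa difference was -0.022 under quantile normalization, -0.14 with array weights, -0.078 without both narrow arrays, and -0.044 to 0.088 with 1 array left out; between IFNa and IFNg it was -0.0092 under quantile normalization. After IFNg, with 1 array left out, the difference ranged from -0.075 to 0.21 for Ms4a6b, -0.040 to 0.14 for Ms4a4a and -0.070 to 0.17 for Ms4a4d. The cause was not tested.

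With the replicate number of the titles as a block, 1 of the 6 genes passed after IFNg (Ms4a4c, 0.74, adjusted p = 0.0483, limma), and the Ms4a7 difference after IFNa was -0.044. Same-numbered untreated and IFNa arrays had correlations of their deviations of -0.21, 0.17 and 0.60. Differently numbered pairs of these groups ranged from -0.61 to 0.61, so such values cannot decide whether arrays were paired. The numbers in titles and descriptions differ for the treated samples, so the number was not taken as a pairing in the reported fit. No member had another probe set to try. Over these alternatives 1.46% to 28.2%, 0.41% to 31.2% and 0.21% to 8.33% of all genes were called in the 3 comparisons, the highest with array weights, against 2.65%, 1.35% and 0.98% in the reported fit.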
